A study of Mus musculus with 9 samples.

Results

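Interferon-stimulated antiviral effectors and sensors were followed in macrophages sorted from mouse fetal liver, with and without a Cre that targets the gene of the phosphate exporter XPR1. The group holds 46 genes, chosen by symbol from the wider family of interferon-stimulated genes with earlier results of these data known. All 46 had a row among the 13708 genes of the table of normalized counts. All 46 also passed the filter on low values, a level of 10 normalized counts or more in 4 samples or more, which 13594 genes passed. They were ordered by role into 7 sensors of nucleic acid, 9 genes of ISG15 conjugation or TRIM ligases, 20 effectors and 10 regulators of transcription or nuclear bodies.

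Cells carrying CD45, high F4/80 and low CD11b were taken at E15.5 on a C57BL/6JRj background. The deleted group was Mrc1Cre Xpr1fl/fl (n = 5), and the controls were Xpr1fl/fl (n = 4), so both groups carried Xpr1 alleles with loxP sites around exon 2. Cre stood in the Mrc1 locus, which encodes CD206. The controls are not labelled with Cre, so the inserted Cre and the loss of Xpr1 cannot be told apart in this design. CD206 is also made by sinusoidal endothelial cells of the liver, where this Cre can delete Xpr1 too. The labels do not say whether a sample was 1 embryo or a pool, so the p-values measure the spread between these samples. Samples are called Cre 1 to 5 and control 1 to 4 by the numbers in their labels.

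Cells that meet viral nucleic acid make type I interferon, which acts on the same cell and its neighbours through a receptor, the JAK kinases and STAT proteins. A STAT complex and the interferon regulatory factors bind repeats of GAAA in the promoters of responsive genes. The products detect foreign RNA and DNA, attach the ubiquitin-like protein ISG15 to other proteins, or block entry, replication and release of viruses. Many tissue macrophages express part of this set without infection.

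The repeat was searched for as the letters GAAANNGAAA on both strands, from 250 bases before to 50 bases after the start of each gene's canonical transcript (build GRCm39, GENCODE release 39). It was found at 17 of the 46 members (37%) and in 3.76% of the 13584 such windows of all genes tested. By role, it was found at 6 of 7 sensors (85.7%), 4 of 9 ISG15 and TRIM genes (44.4%), 6 of 20 effectors (30%) and 1 of 10 regulators (10%). The sites of the 6 sensors and of 5 other members are printed because they show how the repeat is built at genes that differ widely in their change. Capitals mark the repeat, on the strand where it reads GAAA, and lower case marks up to 10 bases on each side. The Zbp1 sites lie at chr2:173060790-173060825 and chr2:173060742-173060777 on the plus strand, opposite to the gene. The sites of Ifih1 (chr2:62476558-62476577, minus), Rigi (chr4:40239804-40239833, plus) and Eif2ak2 (chr17:79189964-79189993, minus) lie just after the transcript start. The Dhx58 site is at chr11:100595082-100595111 on the plus strand. The Ddx60 sites are at chr8:62381058-62381087 and chr8:62381092-62381121 on the plus strand. The others are Isg15 (chr4:156285322-156285363, minus), Trim21 (chr7:102214655-102214686, minus), Bst2 (chr8:71990221-71990256, minus), Rsad2 (chr12:26506552-26506581, plus) and Phf11b (chr14:59578810-59578839, minus).
Zbp1, first site: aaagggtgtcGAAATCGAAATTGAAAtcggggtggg
Zbp1, second site: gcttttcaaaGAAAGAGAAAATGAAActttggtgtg
Ifih1: gaagagaatcGAAACAGAAA
Rigi: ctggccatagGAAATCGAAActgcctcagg
Eif2ak2: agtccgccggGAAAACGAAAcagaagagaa
Dhx58: ctctagaaatGAAACTGAAAcaaggggagg
Ddx60, first site: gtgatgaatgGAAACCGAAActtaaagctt
Ddx60, second site: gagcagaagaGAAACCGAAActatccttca
Isg15: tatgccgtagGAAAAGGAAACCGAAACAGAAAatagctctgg
Trim21: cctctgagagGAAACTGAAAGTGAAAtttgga
Bst2: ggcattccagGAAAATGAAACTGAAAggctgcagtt
Rsad2: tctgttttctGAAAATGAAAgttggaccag
Phf11b: cacatttagaGAAAAAGAAActagaaacta

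The Isg15 promoter held 3 overlapping repeats, from 50 to 29 bases before the transcript start. Its whole upstream stretch of 250 bases, chr4:156285304-156285553 on the minus strand, ends at the base before the start and is printed to show where they sit.
Isg15 promoter: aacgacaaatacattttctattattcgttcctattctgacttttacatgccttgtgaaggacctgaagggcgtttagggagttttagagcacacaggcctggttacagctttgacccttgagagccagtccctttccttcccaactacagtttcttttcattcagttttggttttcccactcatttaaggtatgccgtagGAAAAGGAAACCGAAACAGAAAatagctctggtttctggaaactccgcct
A match in letters is a description of the window and no evidence of binding. Members with the repeat had a median log2 fold change of 0.50 in Mrc1Cre Xpr1fl/fl macrophages, and members without it 0.45. The palindrome of the gamma interferon response, TTCNNNGAA, was found at 6 of the 46 members (13%) and in 7.83% of the windows of all genes.

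Xpr1 was read first as a check of the labels. The controls held 1780.9, 1859.6, 2239.2 and 2046.7 normalized counts of Xpr1 and the Cre samples 1173.5, 1187.4, 1073.7, 1285.3 and 1090.8. The groups did not overlap, and the log2 fold change was -0.77 (SE 0.08, limma adjusted p = 4.13e-05), a fold of 0.588. Much of the Xpr1 signal thus remained in the Cre samples. Counts over the whole gene do not show exon 2 by itself, and these data hold no protein. Xpr1 lies at chr1:155151407-155293181 on the minus strand. Mrc1, the locus that holds Cre, fell from 24693.3 ± 2674.1 (SD, n = 4) to 7574.1 ± 1265.6 (SD, n = 5) normalized counts without overlap. Its log2 fold change was -1.72 (SE 0.12, limma adjusted p = 5.37e-06). The totals of the samples, 26942921 to 28309443 normalized counts, are set by the normalization, and the depth of sequencing is unknown.

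Of the 46 members, 38 rose, 2 fell and 6 did not pass the threshold in Mrc1Cre Xpr1fl/fl macrophages (limma, Benjamini-Hochberg adjusted p under 0.05 over all genes tested). Across all genes, 21.5% were called higher and 21.6% lower. Since the members were chosen with earlier results of these data known, their counts beside these shares are a description and no test. The median log2 fold change of the members was 0.47, with a range from -0.58 to 2.05, and the median over all genes was 0.00. A rise of more than 2-fold was called for 11 members, against 2.09% of all genes. For 30 members every Cre sample lay above every control, which held for 16.6% of all genes. Summed over the members, the controls held 129135.7 to 147295.4 normalized counts and the Cre samples 182181.2 to 218624.5, so the sums did not overlap. In bulk samples, fewer cells of a type and less RNA per cell cannot be told apart, and the same holds for more.

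**Figure D1:**
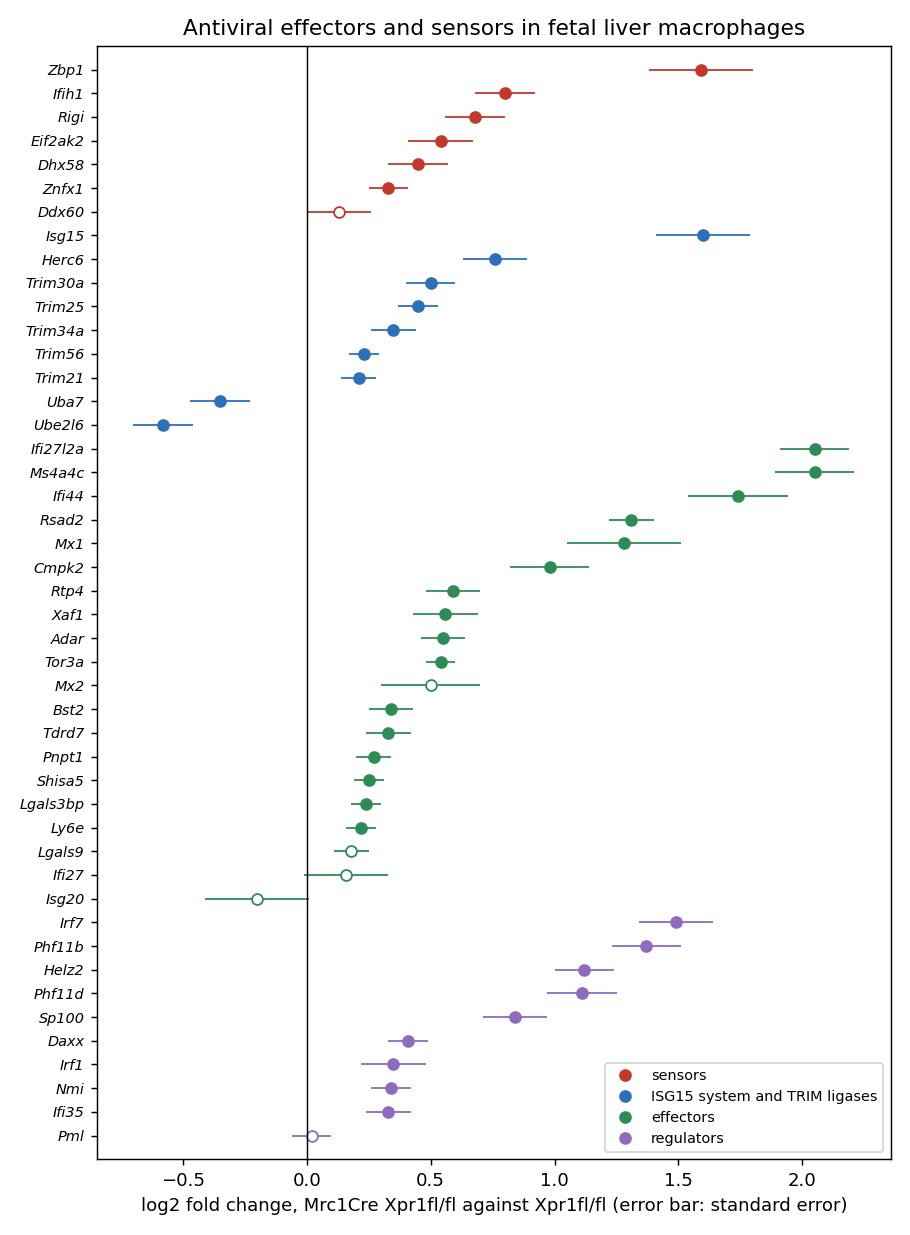
Log2 fold change of each member, Mrc1Cre Xpr1fl/fl (n = 5) against Xpr1fl/fl (n = 4), on the log2(normalized count + 1) scale, grouped by role, with the standard error as bars. Filled points passed the limma threshold and open points did not. Of the 46 points, 40 are filled, and Uba7 and Ube2l6 are the filled points below 0.

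The column names carry dates, and what the dates stand for is not stated. The earliest date holds Cre 5 and controls 1 to 3, the middle one control 4 and the latest Cre 1 to 4, so that with date in the model the genotypes are compared only within the earliest date. The contrast then rests on Cre 5, a lone sample of its group on that date, with the spread taken from Cre 1 to 4 and controls 1 to 3. In that fit 15 members were higher and 0 lower, against 4.24% of all genes called higher, and the median log2 fold change of the members was 0.49. Those past the threshold were Zbp1, Isg15, Herc6, Ms4a4c, Ifi27l2a, Ifi44, Rsad2, Tor3a, Ly6e, Ifi27, Irf7, Phf11b, Helz2, Phf11d and Irf1. Within the earliest date, Cre 5 lay above all 3 controls for 39 members and below all 3 for 0 members, with 34.9% of all genes above. Scaling each sample to its 75th percentile left 34 members higher and 2 lower. It also moved the split over all genes, from 2926 higher and 2939 lower to 1999 higher (14.7%) and 3707 lower (27.3%), and the median of all genes to -0.07.

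The sensors rose in 6 of 7 cases, with a median log2 fold change of 0.54. Zbp1, which recognizes nucleic acid in the Z conformation and can start necroptosis, rose most. Zbp1 was at 418.3, 513.4, 231.3 and 326.7 normalized counts in the controls and at 985.1, 1554.6, 979.2, 936.0 and 1033.3 in the Cre samples. Every Cre sample was above every control, and Cre 2 stood apart from the other Cre samples. This gave a log2 fold change of 1.59 (SE 0.21, adjusted p = 0.000197), a 3.01-fold rise at chr2:173033815-173060724.

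The helicases that detect double-stranded RNA in the cytosol changed less. Ifih1 (MDA5, for long duplexes) rose from 1437.1 ± 245.9 (SD, n = 4) to 2497.9 ± 353.2 (SD, n = 5) normalized counts, a log2 fold change of 0.80. Rigi (RIG-I, for duplexes with a 5′ triphosphate) rose from 1853.9 ± 308.5 (SD, n = 4) to 2953.9 ± 412.7 (SD, n = 5), a log2 fold change of 0.68. Dhx58 (LGP2, a relative without the signalling domain) rose by a log2 fold change of 0.45. In these 3 genes no Cre sample overlapped with a control. Their calls did not hold with date in the model, where the log2 fold changes were 0.60, 0.49 and 0.49 and the adjusted p-values 0.0958, 0.158 and 0.188.

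Eif2ak2 encodes PKR, the kinase that halts translation on binding double-stranded RNA. Its controls held 2011.1, 3054.7, 2377.9 and 2527.5 normalized counts and its Cre samples 3364.2, 4267.7, 3615.3, 3961.9 and 2881.2. Control 2 lay above Cre 5, and the 4 other Cre samples lay above all controls. Eif2ak2 rose by a log2 fold change of 0.54 (SE 0.13, adjusted p = 0.00585), which was 0.24 with date in the model (adjusted p = 0.49). Eif2ak2 overlaps Gpatch11 on the opposite strand by 10650 bp.

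Znfx1, a helicase that binds viral RNA at mitochondria, had the highest control level of the sensors per length, 549.6 normalized counts per kb of exon. The controls held 3987.9, 4856.9, 4633.5 and 4604.0 normalized counts and the Cre samples 5063.2, 6376.8, 5889.6, 5477.9 and 5545.1, without overlap. Its log2 fold change was 0.33 (SE 0.08, adjusted p = 0.00497; with date in the model 0.31, adjusted p = 0.188). Ddx60, a helicase linked to signalling by RIG-I, was the sensor that did not pass. It was at 1119.7, 1549.6, 1232.8 and 1511.7 normalized counts in the controls and at 1168.6, 1762.3, 1374.6, 1692.9 and 1401.9 in the Cre samples. The groups overlapped widely, with a log2 fold change of 0.13 (SE 0.13, adjusted p = 0.466), although 2 of the printed repeats belong to this gene.

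Without date in the model, the ISG15 system moved in both directions. ISG15 is activated by the E1 enzyme Uba7, passed to the E2 enzyme Ube2l6 and attached to targets by ligases, of which Herc6 is the main one in the mouse. Trim25 can also act as such a ligase, and Usp18 takes ISG15 off again. Isg15, Herc6, Trim25 and Usp18 rose, while Uba7 and Ube2l6 fell. With date in the model the log2 fold changes were 1.54 for Isg15, 0.79 for Herc6, 0.18 for Trim25 and 1.17 for Usp18. In that fit Uba7 was at 0.08 and Ube2l6 at -0.20, so their falls cannot be told apart from date.

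Isg15 (chr4:156283883-156285303) was at 551.7, 685.2, 327.0 and 551.7 normalized counts in the controls and at 1334.1, 2118.1, 1437.3, 1508.5 and 1451.5 in the Cre samples. No Cre sample came near the controls, and Cre 2 was the highest. The log2 fold change was 1.60 (SE 0.19, adjusted p = 0.000105). Of the words of 31 bases in the Isg15 transcripts, 12.4% also occur in other genes. Herc6 rose from 896.5 ± 192.1 (SD, n = 4) to 1493.3 ± 126.8 (SD, n = 5) normalized counts, a log2 fold change of 0.76. Herc6 shares 20.5% of its words with Gm45193. Both genes also passed with date in the model, at log2 fold changes of 1.54 and 0.79.

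Ube2l6 (chr2:84628630-84640783) had the highest control level per length in this role, 949.6 normalized counts per kb of exon. The controls held 2572.8, 2080.5, 3022.5 and 2967.3 normalized counts and the Cre samples 1560.8, 1705.7, 1705.9, 1693.0 and 2198.2. Cre 1 to 4 lay below all controls, and Cre 5 lay above control 2. The log2 fold change was -0.58 (SE 0.12, adjusted p = 0.00281), and -0.20 with date in the model (adjusted p = 0.477).

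Uba7 (chr9:107852704-107861262) was at 2518.4, 3267.8, 3239.0 and 3667.4 normalized counts in the controls and at 2229.1, 2275.5, 2308.1, 2501.4 and 3150.9 in the Cre samples. Cre 5 lay among the controls. Uba7 had a log2 fold change of -0.35 (SE 0.12, adjusted p = 0.0357), and the call was lost when any of Cre 1, 2, 3 and 4 or controls 2, 3 and 4 was left out (adjusted p = 0.0589 to 0.101). With date in the model the direction turned, to 0.08 (adjusted p = 0.77). Uba7 overlaps Gm20661 on the same strand by 1006 bp and shares 5.3% of its words with other genes. The call of Ube2l6 held with each sample left out in turn, and that of Uba7 did not.

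**Figure D2:**
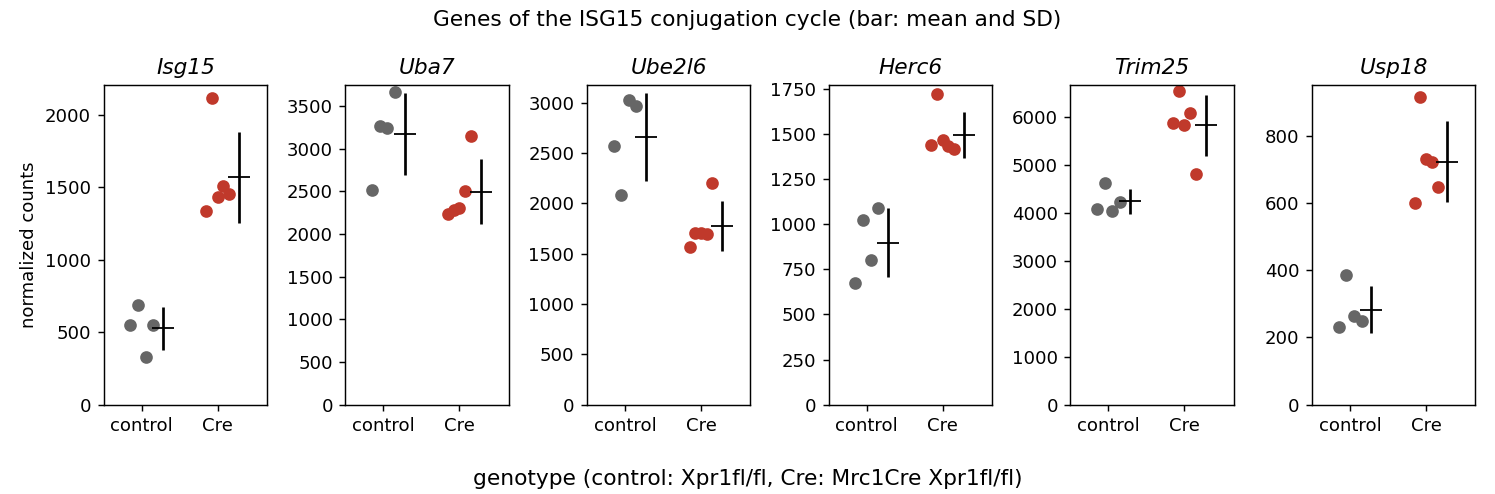
Normalized counts of 6 genes of the ISG15 cycle in each sample, with the mean and SD of each genotype beside the points (controls n = 4, Cre n = 5) and each axis starting at 0. Isg15, Herc6, Trim25 and Usp18 are separated upwards, with Isg15 at 327.0 to 685.2 in the controls and 1334.1 to 2118.1 in the Cre samples, while Uba7 and Ube2l6 are lower on average with Cre 5 among the controls.

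The TRIM ligases rose by small amounts. Trim30a (log2 fold change 0.50), Trim25 (0.45) and Trim56 (0.23) did so without overlap between the genotypes. Trim25 rose from 4252.6 ± 260.1 (SD, n = 4) to 5836.2 ± 638.6 (SD, n = 5) normalized counts. Trim34a overlapped, with controls at 550.1, 686.1, 587.5 and 559.9 and Cre samples at 667.3, 850.8, 732.3, 828.0 and 709.5 normalized counts, where Cre 1 lay below control 2. Its log2 fold change was 0.35 (SE 0.09, adjusted p = 0.0121), and 54.5% of its words of 31 bases also occur elsewhere, mostly in Trim34b, so the share of each gene is uncertain. Trim21, the cytosolic antibody receptor, showed the smallest change of this role. Its controls held 911.5, 1049.4, 917.5 and 912.6 normalized counts and its Cre samples 979.4, 1190.5, 1113.1, 1047.7 and 1148.0. Control 2 lay among the Cre samples, and the log2 fold change was 0.21 (SE 0.07, adjusted p = 0.0384). That call was lost without any of Cre 2, 3 and 5 or controls 1, 3 and 4 (adjusted p = 0.0672 to 0.0939). None of these 5 TRIM genes passed with date in the model (adjusted p = 0.24 to 0.427). The 9 genes of this role had a median log2 fold change of 0.35.

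The effectors rose in 16 of 20 cases, and 5 of them rose more than 2-fold. Ms4a4c, a tetraspan membrane protein of the MS4A family, changed most. Its controls held 287.1, 299.2, 203.6 and 217.3 normalized counts and its Cre samples 1075.7, 1443.5, 868.9, 942.7 and 929.2. The lowest Cre sample was well above the highest control, with a log2 fold change of 2.05 (SE 0.16, adjusted p = 1.02e-05) at chr19:11382131-11404610. Ms4a4c shares 17.5% of its words with other genes, chiefly Ms4a4b.

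Ifi27l2a and Ifi27 encode related small membrane proteins, and their genes overlap on opposite strands of chromosome 12 by 7825 bp. Ifi27l2a (chr12:103399975-103409950) was at 606.3, 563.2, 351.6 and 484.6 normalized counts in the controls and at 1687.7, 2202.0, 2107.5, 2223.5 and 1994.2 in the Cre samples. Ifi27 (chr12:103392254-103407799) was at 827.0, 608.9, 780.5 and 748.1 in the controls and at 661.8, 734.5, 753.6, 822.5 and 1261.0 in the Cre samples. Ifi27l2a was separated completely, while Ifi27 was within the control range in every Cre sample but Cre 5. The log2 fold changes were 2.05 (SE 0.14, adjusted p = 6.1e-06) and 0.16 (SE 0.17, adjusted p = 0.458). Ifi27 passed with date in the model, in which Cre 5 is the Cre sample that counts (0.78, adjusted p = 0.026). The library kit keeps the strand, and the strand setting of the quantification is not given in the sources used here. The difference between the changes of these genes was not tested.

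Rsad2, or viperin, makes a chain-terminating nucleotide, and Cmpk2 beside it phosphorylates nucleotides in mitochondria. The genes lie 12.8 kb apart on chromosome 12 and point away from each other. Rsad2 rose from 2081.0 ± 211.8 (SD, n = 4) to 5156.8 ± 524.6 (SD, n = 5) normalized counts, a log2 fold change of 1.31 (SE 0.09, adjusted p = 4.66e-06). Cmpk2 rose from 707.7 ± 159.4 (SD, n = 4) to 1394.1 ± 291.3 (SD, n = 5), a log2 fold change of 0.98. Both were separated between genotypes, and of the pair only Rsad2 passed with date in the model (Cmpk2 0.88, adjusted p = 0.0888). Ifi44 rose by a log2 fold change of 1.74 from the lowest control level of all members, 16.3 normalized counts per kb of exon.

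Mx1 and Mx2 belong to a family of dynamin-like GTPases with members that act against viruses. Whether either gene gives an active protein on this mouse background was not measured. Mx1 rose from 508.5 ± 157.2 (SD, n = 4) to 1248.9 ± 434.3 (SD, n = 5) normalized counts, a log2 fold change of 1.28 (SE 0.23, adjusted p = 0.00124; with date in the model 1.12, adjusted p = 0.109). Mx2 was at 178.1, 301.2, 185.5 and 270.2 normalized counts in the controls and at 245.5, 396.2, 285.9, 299.8 and 414.9 in the Cre samples. Mx1 did not overlap between genotypes, and Mx2 did. The log2 fold change of Mx2 was 0.50 (SE 0.20, adjusted p = 0.0613), and it passed without Cre 1 (adjusted p = 0.0356) or control 2 (adjusted p = 0.0286). Mx2 shares 12.1% of its words with other genes, chiefly Mx1.

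Several effectors rose moderately without overlap between genotypes. Adar, the adenosine deaminase that edits double-stranded RNA, rose by 0.55 on the log2 scale and Tor3a, an ATPase of the endoplasmic reticulum, by 0.54. Rtp4 rose by 0.59, Bst2 (tetherin, which holds budding virus at the cell surface) by 0.34, Tdrd7 by 0.33 and Shisa5 by 0.25. Of these 6, Tor3a also passed with date in the model (0.48, adjusted p = 0.0238), while the adjusted p-values of the others were 0.114 to 0.401.

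For 4 further effectors the call was made although 1 or more samples overlapped. Xaf1, which counters the apoptosis inhibitor XIAP, was at 573.4, 859.7, 564.9 and 708.6 normalized counts in the controls and at 855.1, 1194.9, 957.2, 966.5 and 959.7 in the Cre samples. Pnpt1, an exoribonuclease of mitochondria, was at 1589.9, 1963.7, 1603.0 and 1673.6 in the controls and at 1961.4, 2268.0, 2010.9, 2016.1 and 2022.7 in the Cre samples. In both genes control 2 exceeded Cre 1 by a small margin, and the log2 fold changes were 0.56 (SE 0.13, adjusted p = 0.00559) and 0.27 (SE 0.07, adjusted p = 0.0104). Lgals3bp, a secreted partner of galectins, was at 11663.0, 11532.9, 11628.8 and 13211.1 in the controls and at 13009.9, 15196.5, 14492.2, 14321.2 and 13865.7 in the Cre samples. Here control 4 lay above Cre 1, and the log2 fold change was 0.24 (SE 0.06, adjusted p = 0.00777). With date in the model the adjusted p-values of Xaf1, Pnpt1 and Lgals3bp were 0.176, 0.281 and 0.109.

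Ly6e, a lipid-anchored surface protein that blocks entry of coronaviruses, had the highest control level per length of all members, 7864.2 normalized counts per kb of exon. The controls held 33508.1, 33550.6, 36394.1 and 39770.4 normalized counts and the Cre samples 40649.4, 42709.4, 41502.6, 39185.0 and 43921.2. Only Cre 4 lay below the highest control. Ly6e rose by a log2 fold change of 0.22 (SE 0.06, adjusted p = 0.0183), and the call was lost with scaling to the 75th percentile (adjusted p = 0.0969) but held with date in the model (0.35, adjusted p = 0.042).

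Besides Mx2 and Ifi27, Lgals9 and Isg20 did not pass. Lgals9, a galectin, was at 5860.9, 7019.0, 6290.0 and 7107.6 normalized counts in the controls and at 7207.7, 8188.8, 7657.9, 7190.3 and 6823.4 in the Cre samples. The 4 samples of the latest date were above all controls and Cre 5 was not, with a log2 fold change of 0.18 (SE 0.07, adjusted p = 0.0657). Lgals9 passed without Cre 5 (adjusted p = 0.0371) or control 4 (adjusted p = 0.0422). Isg20, an exonuclease of single-stranded RNA, was at 234.4, 227.0, 434.1 and 389.0 in the controls and at 234.0, 252.0, 229.6, 274.7 and 374.9 in the Cre samples. Controls 3 and 4 held the highest values of Isg20, and its log2 fold change was -0.20 (SE 0.21, adjusted p = 0.487), with 0.40 under the date term (adjusted p = 0.47). The effectors together had a median log2 fold change of 0.52.

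**Figure D3:**
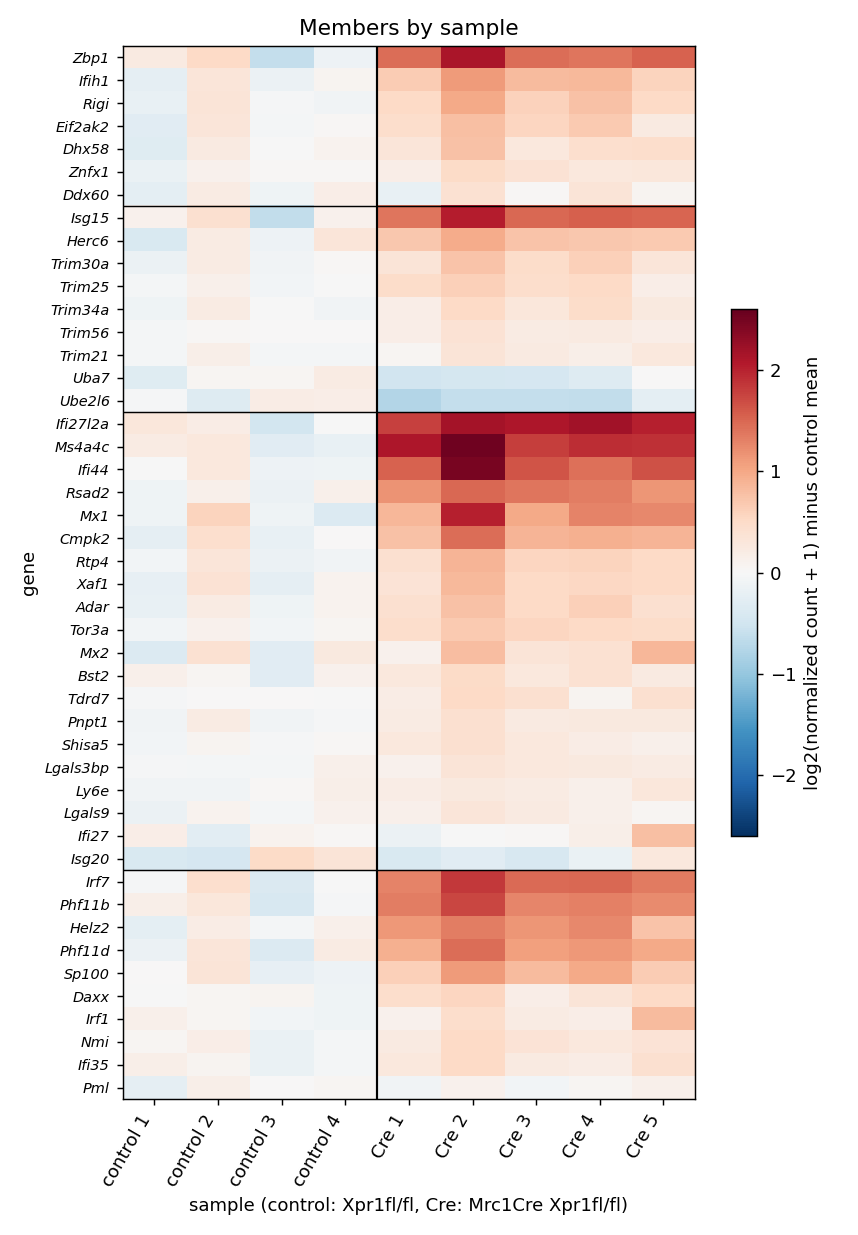
Log2(normalized count + 1) of each member minus its mean over the 4 controls, for 4 Xpr1fl/fl and 5 Mrc1Cre Xpr1fl/fl samples, with rows grouped as sensors, ISG15 and TRIM genes, effectors and regulators (red above, blue below the control mean). The columns Cre 2 and control 2 are the reddest of their groups, being the highest of the group for 37 and 31 of the 46 members.

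The regulators rose in 9 of 10 cases. Irf7, the factor that amplifies type I interferon responses, had the largest change and the highest control level per length of this role, 904.3 normalized counts per kb of exon. The controls held 3284.3, 4510.4, 2569.8 and 3308.1 normalized counts and the Cre samples 8148.4, 11905.8, 9308.3, 9481.2 and 8546.8. The groups were far apart, with a log2 fold change of 1.49 (SE 0.15, adjusted p = 3.43e-05) at chr7:140842619-140846398.

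Irf1, a related factor that gamma interferon induces strongly, behaved differently from sample to sample. The controls held 2470.7, 2323.5, 2149.5 and 2077.0 normalized counts and the Cre samples 2422.4, 3094.2, 2597.7, 2534.3 and 3962.2. Cre 1 lay below control 1, and Cre 5 was the highest sample. The log2 fold change was 0.35 (SE 0.13, adjusted p = 0.0444). The call was lost without any of Cre 2 or controls 1, 2, 3 and 4 (adjusted p = 0.0503 to 0.103) and with scaling to the 75th percentile (adjusted p = 0.123). With date in the model, where Cre 5 is set against controls 1 to 3, the log2 fold change was 0.78 (adjusted p = 0.00894).

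Helz2, a helicase that acts as a coactivator of transcription, rose from 9768.2 ± 1318.9 (SD, n = 4) to 21354.2 ± 3182.9 (SD, n = 5) normalized counts, a log2 fold change of 1.12 (SE 0.12, adjusted p = 5.32e-05). The PHD finger genes Phf11b and Phf11d, 5.8 kb apart on chromosome 14, rose by log2 fold changes of 1.37 and 1.11. Phf11b shares 62.4% of its words of 31 bases with other genes, chiefly Phf11a, and Phf11d 26.6%, so the share of each is uncertain. Among proteins of nuclear bodies, Sp100 rose by 0.84 and Daxx by 0.41 on the log2 scale. Pml, which builds these bodies, did not pass. Pml was at 3687.6, 4830.7, 4360.2 and 4512.3 normalized counts in the controls and at 4042.0, 4668.1, 4096.4, 4488.3 and 4749.0 in the Cre samples. All Cre samples of Pml lay within the control range, with a log2 fold change of 0.02 (SE 0.08, adjusted p = 0.833). The partner proteins Nmi and Ifi35 rose by 0.34 and 0.33. With date in the model, Sp100, Daxx, Nmi and Ifi35 did not pass (adjusted p = 0.0521 to 0.198). The 10 regulators had a median log2 fold change of 0.63.

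Sensors, ISG15 and TRIM genes, effectors and regulators thus had medians of 0.54, 0.35, 0.52 and 0.63 on the log2 scale, each with a range that spanned more than the distance between the medians. The sensors ran from 0.13 to 1.59, the ISG15 and TRIM genes from -0.58 to 1.60, the effectors from -0.20 to 2.05 and the regulators from 0.02 to 1.49. With date in the model the medians were 0.49, 0.23, 0.49 and 0.69, and 1, 2, 7 and 5 members passed. No test was made between the roles. Every Cre sample lay above every control for 5 of 7 sensors, 5 of 9 ISG15 and TRIM genes, 12 of 20 effectors and 8 of 10 regulators.

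Baseline level was read as the mean normalized count of the controls per kb of exon. Its median over the members was 327.6, against 106.8 over all genes tested, and 219.6 for the sensors, 474.0 for the ISG15 and TRIM genes, 311.8 for the effectors and 327.6 for the regulators. Levels ran from 16.3 (Ifi44) to 7864.2 (Ly6e). The 15 members with the lowest levels, up to 187.6, had a median log2 fold change of 0.76. The middle 16 had a median of 0.43, and the 15 with the highest levels, from 485.5 on, had 0.34. Across the 46 members Spearman's rho between baseline and log2 fold change was -0.28. The controls enter both measures, and with the mean over all samples in place of the controls rho was -0.02. Between baseline and the difference in level per kb, rho was 0.51. Within roles rho was -0.46 (7 sensors), -0.17 (9 ISG15 and TRIM genes), -0.34 (20 effectors) and 0.02 (10 regulators). The members share their libraries and are not independent of each other. A high baseline and a large relative rise occurred together in Irf7, Helz2 and Isg15.

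**Figure D4:**
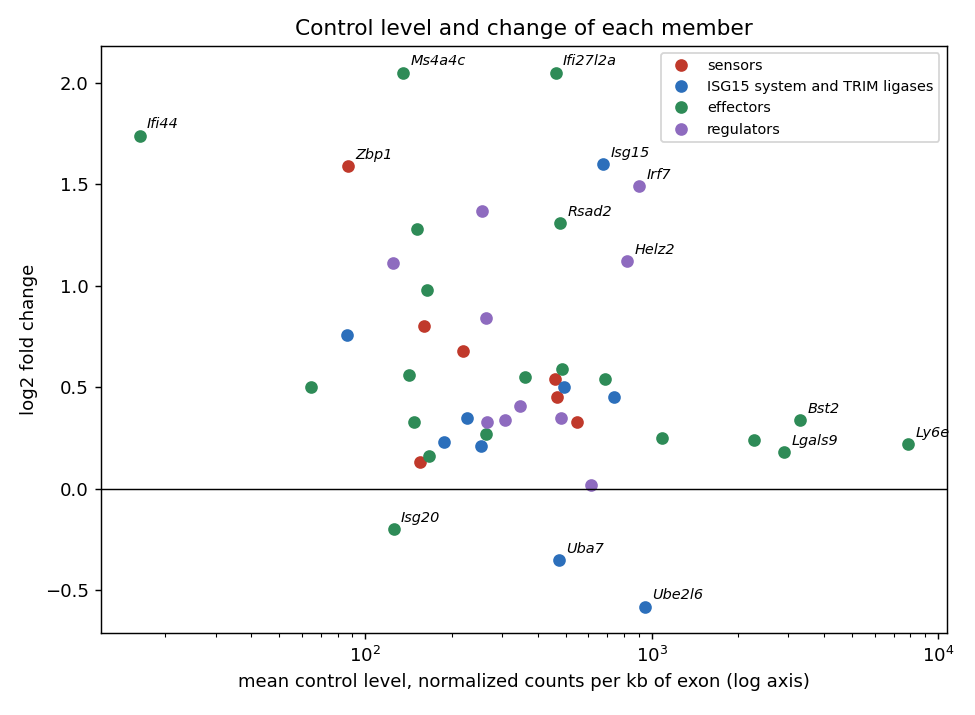
Log2 fold change of each member against its mean control level in normalized counts per kb of exon (log axis), 1 point per gene, coloured by role. Ifi44, farthest to the left at 16.3 per kb, lies at 1.74, and Ly6e, farthest to the right at 7864.2 per kb, lies at 0.22. Other points towards the left lie low, such as Isg20 at 125.7 per kb and -0.20. Uba7 and Ube2l6 are the called genes below 0.

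Samples of a group differed in step across the members. Cre 2 was the highest Cre sample for 37 of 46 members, while it was the highest for 20% of all genes. Control 2 was the highest control for 31 of 46 members and for 21.5% of all genes. Cre 1 was the lowest Cre sample for 25 members and control 1 the lowest control for 22. Relative to the control mean, the median of the members was 0.72 on the log2 scale in Cre 2 and 0.35 to 0.49 in the other Cre samples, and 0.20 in control 2. Without Cre 2, 36 members rose and the median log2 fold change was 0.42. Without control 2, 38 rose and the median was 0.55.

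Genes around the members were read from lists of the pathway. Of 23 genes for adaptors of RNA and DNA sensing and for the ISG15 cycle, 16 rose, 3 fell and 4 did not pass, with a median log2 fold change of 0.37. The shares over all genes tested were 21.5% higher and 21.6% lower. Of these genes 7 were higher and 0 lower with date in the model. Usp18 changed most, from 230.6, 385.6, 264.4 and 248.5 normalized counts in the controls to 598.6, 915.9, 730.8, 721.4 and 646.6 in the Cre samples (log2 fold change 1.37). Its groups did not overlap. Mavs, the adaptor of RIG-I and MDA5, fell by 0.24 and Irf3 by 0.17 on the log2 scale, and neither passed with date in the model (adjusted p = 0.411 and 0.584). The call of Irf3 was also lost without any of Cre 1, 2 and 3 or controls 1, 2 and 3 (adjusted p = 0.0524 to 0.0679). Ripk3, the partner of Zbp1 in necroptosis and the gene with the highest control level per length in this list, rose by 0.38.

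Of 13 genes tested for interferon receptors, JAK-STAT signalling and its feedback, 5 rose, 2 fell and 6 did not pass, with a median log2 fold change of 0.12. With 21.5% of all genes called higher and 21.6% lower, the 2 falls are not read as a result about this list. Socs1, a feedback inhibitor, had the largest rise of the list (0.88) and Jak1 rose by 0.21 on the log2 scale, and with date in the model 0 of the 13 passed. The call of Socs1 was lost without any of Cre 2 and 5 or controls 2, 3 and 4 (adjusted p = 0.0625 to 0.0853) and with scaling to the 75th percentile (adjusted p = 0.0534), as was that of Jak1 with this scaling (adjusted p = 0.0709). The receptor gene Ifnar2 fell by 0.16 and Il10rb by 0.24. For Ifnar2 the call was lost without any of Cre 1, 2, 4 and 5 or controls 1, 3 and 4 (adjusted p = 0.0568 to 0.103). Ifngr1, with the highest control level per length of this list, had a log2 fold change of -0.11 (adjusted p = 0.0953). The 20 listed interferon genes and Ifnlr1 had no row under their symbols among the genes of the table, so they could not be tested.

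Markers of other cells were measured beside the members. Among all genes tested, 21.5% were called higher and 21.6% lower. The 2 rises of monocyte markers and the 3 falls of plasmacytoid dendritic cell markers given below are not far from these shares. The macrophage genes Adgre1, Csf1r, Cd68, Fcgr1, Mertk and C1qb did not pass in either direction, and the other 8 of 14 macrophage markers, such as Vsig4, Clec4f and Timd4, fell. Erythroid markers fell in 14 of 14 cases, with summed levels of 418242.9 to 660677.1 normalized counts in the controls and 105607.9 to 318704.0 in the Cre samples. Endothelial markers fell in 9 of 10 cases (10387.9 to 14253.2 against 6331.8 to 8437.1) and hepatocyte markers in 10 of 10 (59546.3 to 102763.0 against 35350.2 to 45590.1). Neutrophil and progenitor markers fell in 5 of 10 cases (9331.7 to 54943.9 against 5101.2 to 18281.6). Those that fell were Elane, Mpo, Prtn3, Ctsg and Ms4a3. The neutrophil genes S100a8, S100a9, Ngp, Camp and Ltf did not pass (limma adjusted p = 0.0848 to 0.755). Lymphocyte and NK cell markers fell in 4 of 4 cases tested (315.0 to 581.1 against 80.9 to 163.2), while 10 were listed and the others had no row. Among monocyte markers 2 rose, Cx3cr1 and Plac8, and 4 of 9 fell (12114.3 to 15482.5 against 15161.3 to 21216.9). Markers of plasmacytoid dendritic cells, which make much type I interferon, rose in 0 of 10 cases and fell in 3, with sums of 2013.6 to 2504.2 in the controls and 1793.9 to 2265.1 in the Cre samples. Their defining marker Siglech was at 23.7 ± 15.4 (SD, n = 4) and 9.6 ± 3.9 (SD, n = 5) normalized counts, and Ly6d was listed at 0 in Cre 3. With date in the model the falls passed for 4 of 14 erythroid, 2 of 10 endothelial, 2 of 10 hepatocyte, 5 of 10 neutrophil and progenitor, 3 of 4 lymphocyte, 1 of 9 monocyte, 1 of 10 plasmacytoid dendritic cell and 5 of 14 macrophage markers, and no marker rose (Cx3cr1 adjusted p = 0.405, Plac8 0.0749). Control 2 and Cre 2, highest for most members, had the lowest erythroid sums of their groups (418242.9 and 105607.9), and Cre 5 had the highest erythroid sum of the Cre samples (318704.0). The part of these cells in the results on the members was not tested.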

How the data were processed

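Bulk RNA-seq of sorted E15.5 liver macrophages covered 5 Mrc1Cre Xpr1fl/fl and 4 Xpr1fl/fl samples. The authors made stranded mRNA libraries, quantified reads with salmon on an index of GRCm39 and imported them with tximport. The deposited signal is the normalized count per gene after DESeq2, and tool versions are not given in the sources used here. All columns were matched to samples by name. Gene symbols came from GENCODE release 39 of GRCm39, for 13698 of 13708 genes.

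Genotypes were compared with limma 3.58.1 (R 4.3.3; lmFit, eBayes with trend, two-sided) on log2(normalized count + 1), a scale that understates changes of low genes. Genes with at least 10 in at least 4 samples were tested, with Benjamini-Hochberg adjustment over all 13594 and a threshold of 0.05. Levels between genes were compared per kb of merged exon. Shared words are the 31-base stretches of a gene's transcripts found in another gene. The fit was tested on simulated data. Plots used Python 3.11.15 and matplotlib 3.10.9.

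The members, roles and lists were chosen with earlier results of these data known. All 46 members are named. Values in every sample are given, within each role, for the largest and the smallest change and the highest control level per length, and for members that did not pass, fell, overlapped between genotypes or lost their call without 1 sample. Ifi27l2a and the extra list genes named beside the largest of their list were chosen after their values were seen. Alternatives were other pseudocounts, filters, scalings and limma settings, the replicate number as a block, the date as a term, and each sample left out. The single values of some genes in the pathway lists are not reported here.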

Additional observations from a re-analysis of the deposited data

Results flagged for a closer look

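In each genotype, the sample farthest from the others was compared with Dixon's critical value for its group size. Of 92 groups (46 members in 2 genotypes), 12 passed, where chance alone gives about 1 in 20 (4.6). Cre 2 was the far sample, on the high side, in 8 of these members. Mx1 was at 1990.3 normalized counts in Cre 2, against 901.2 to 1210.2 in the other Cre samples. Ifi44 was at 554.5, against 270.0 to 315.2, and Cmpk2 at 1904.9, against 1172.0 to 1325.9. Isg15 was at 2118.1, against 1334.1 to 1508.5, and Zbp1 at 1554.6, against 936.0 to 1033.3. Phf11b was at 1222.5, against 863.1 to 930.1. Herc6 was at 1717.8, against 1415.9 to 1465.3, and Pnpt1 at 2268.0, against 1961.4 to 2022.7.

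Cre 5 was far above the other Cre samples in Ube2l6, with 2198.2 against 1560.8 to 1705.9, and in Ifi27, with 1261.0 against 661.8 to 822.5. Among the controls, Trim21 was at 1049.4 in control 2, against 911.5 to 917.5, and Lgals3bp at 13211.1 in control 4, against 11532.9 to 11663.0. Since Cre 2 and control 2 were the highest of their groups for most members, these values are not independent of each other.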

How the results depend on the processing

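The direction of all members but Pml, Uba7 and Isg20 was kept under every alternative. Pml turned to -0.05 with scaling to the 75th percentile, -0.09 with quantile normalization, -0.03 with array weights and -0.0037 with the replicate block, and ran from -0.05 to 0.08 with single samples left out. With the date as a term Uba7 was at 0.08 and Isg20 at 0.40. That term left 1194 of 5865 genes past the threshold, and 15 of 40 members, all 15 higher (1 sensor, 2 ISG15 and TRIM genes, 7 effectors, 5 regulators). It compares Cre 5 with controls 1 to 3, so fewer samples bear on it. Leaving out single samples gave 4815 to 6081 genes, 37 to 40 members past the threshold, 36 to 39 higher and medians of 0.42 to 0.55. Scaling to the 75th percentile lost Irf1, Trim21, Pnpt1 and Ly6e, quantile normalization lost Irf1, Bst2, Shisa5 and Lgals3bp and gained Mx2, limma without trend lost Irf1, Uba7 and Trim21, and array weights lost Trim21. The other pseudocounts and filters and robust fitting changed no member's call.

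Spearman's rho between baseline and change was -0.36 with quantile normalization, -0.42 with the date as a term, -0.31 per kb of the longest transcript, -0.02 with the mean over all samples (chosen after seeing the data) and -0.32 to -0.26 without single samples.

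Over all genes tested, the deviations of same-numbered samples from their group means correlated at -0.033, 0.147, -0.011 and -0.031 for numbers 1 to 4. Over the members, Cre 2 and control 2 both had a median log2 deviation of 0.20. The labels do not say that samples of the same number are paired. With the replicate block 6226 genes, 42 members and 40 higher members passed, Mx2 and Lgals9 being added, and rho was -0.26. Cre 5 has no control of its number, so this fit compares Cre 1 to 4 with controls 1 to 4. These groups share no date, so genotype and date cannot be told apart in it. A count test was not run, since at most 49.7% of the values under 10 lay within 5% of a whole multiple of a common step. With a search for GAAANNGAA the repeat was found at 41.3% of members and in 8.41% of all windows, and with RefSeq promoters (assembly GRCm38, chosen after seeing the data) at 14 of 37 members (37.8%) and in 3.99%. The unknown depth leaves the precision of low genes such as Ifi44 to the spread between samples.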
